A study of Mus musculus with 3 samples.

Results

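The genes described here encode complex II, complex III, cytochrome c and ATP synthase of the mitochondrial inner membrane, measured in the gastrocnemius muscle of the hind leg. Members were chosen by name, as every gene whose symbol in the array annotation is Sdha to Sdhd, begins with Uqcr, is Cyc1, Cycs or Atpif1, or begins with Atp5, and the rule uses no measured value, although the set was proposed with earlier results of these data known. This gave 32 of the 18193 genes on the array: 4 of complex II, 9 of complex III, cytochrome c, and 18 of ATP synthase including its inhibitor. Male C57BL/6J mice received the diet D12450B, with fat at 10% of kcal (Control), the diet D12492, with fat at 60% of kcal (HF), or D12492 to which the iron salt sodium ferrous citrate was added at 0.023% by weight (HF + SFC). By the methods of the study, feeding began at 6 weeks of age and lasted 15 weeks, but the age on the labels of every group is 21 months. Each group was measured on 1 Affymetrix array of a mix of all its animals, and with 3 arrays in all the differences have no replicate check and were not tested statistically. The question addressed by the comparisons was how the respiratory chain transcripts of muscle differ after a high-fat diet and after iron is added to it.

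Complex II, or succinate dehydrogenase, passes electrons from succinate to ubiquinone, and it is also an enzyme of the tricarboxylic acid cycle. Complex III takes electrons from reduced ubiquinone and hands them to cytochrome c while it pumps protons, and ATP synthase uses the returning protons to turn its c ring and central stalk inside the F1 head, where ATP is made. Several of the electron carriers hold iron, as heme or as an iron–sulfur (Fe–S) cluster, while no subunit of ATP synthase does. In skeletal muscle these proteins are most abundant in oxidative fibres. Almost all of their genes lie in the nucleus, and nuclear respiratory factor 1 (NRF1) and factors of the ETS family are known to act on many of their promoters. The complex III and ATP synthase subunits that mitochondrial DNA encodes were not analysed here.

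Promoters of the members were searched for motifs in RefSeq windows of 300 bases (assembly GRCm38.p6). These windows run from 250 bases before to 50 after a gene's start. The search used no signal, and a link between motifs and the differences between arrays was not tested. Windows were at hand for 25 of the 32 members, 28 windows in all, against 32851 windows of all genes. The NRF1 core, GCGCA and GCGC with 1 base of any kind between them, searched on both strands, was in 10 of the 28 windows (35.7%) and in 4.60% of all windows. Its palindromic form, with T as the base between, is a special case of the core and was in 3 of the 28 and in 0.971% of all. The ETS core CGGAAG, on either strand, was in 15 (53.6%) against 16.9%, and the box CCAAT in 15 (53.6%) against 37.4%. GGGCGG, the SP1 box, was in 10 (35.7%) against 35.7%, and TATAAA in 2 (7.14%) against 13.6%. In no member window did an NRF1 match overlap a match of another of these motifs. Member windows had a median of 58.2% G and C, and all windows 52.7%. A match describes the letters of a window and does not show that a factor was bound.

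The promoters below are those with the most matches of the NRF1 core, 3 in Sdha, and those with its palindrome, in Uqcrc1, Atp5g2 and Atp5k. They are shown 5′ to 3′ on the strand of the gene, with matches of the core in capitals. The Sdha window is chr13:74350191-74350490 on the minus strand, and that of Uqcrc1 is chr9:108936398-108936697 on the plus strand. The windows of Atp5g2, chr15:102670998-102671297, and Atp5k, chr5:108434350-108434649, are on the minus strand.
Sdha: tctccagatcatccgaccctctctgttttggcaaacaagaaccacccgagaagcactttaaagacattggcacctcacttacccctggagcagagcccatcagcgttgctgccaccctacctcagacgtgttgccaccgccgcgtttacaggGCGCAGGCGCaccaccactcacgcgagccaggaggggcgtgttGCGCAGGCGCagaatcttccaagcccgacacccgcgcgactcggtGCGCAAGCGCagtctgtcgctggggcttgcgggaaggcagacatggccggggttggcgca
Uqcrc1: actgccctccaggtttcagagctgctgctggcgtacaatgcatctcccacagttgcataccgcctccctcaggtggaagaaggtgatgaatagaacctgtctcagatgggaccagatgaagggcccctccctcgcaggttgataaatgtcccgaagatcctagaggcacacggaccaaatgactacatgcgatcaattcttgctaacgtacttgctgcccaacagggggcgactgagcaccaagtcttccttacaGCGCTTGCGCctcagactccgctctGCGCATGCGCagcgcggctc
Atp5g2: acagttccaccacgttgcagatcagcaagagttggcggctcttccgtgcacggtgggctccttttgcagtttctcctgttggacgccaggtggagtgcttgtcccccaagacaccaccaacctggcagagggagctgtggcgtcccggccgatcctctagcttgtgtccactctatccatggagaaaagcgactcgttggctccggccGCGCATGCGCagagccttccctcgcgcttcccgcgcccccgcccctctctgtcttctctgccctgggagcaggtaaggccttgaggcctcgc
Atp5k: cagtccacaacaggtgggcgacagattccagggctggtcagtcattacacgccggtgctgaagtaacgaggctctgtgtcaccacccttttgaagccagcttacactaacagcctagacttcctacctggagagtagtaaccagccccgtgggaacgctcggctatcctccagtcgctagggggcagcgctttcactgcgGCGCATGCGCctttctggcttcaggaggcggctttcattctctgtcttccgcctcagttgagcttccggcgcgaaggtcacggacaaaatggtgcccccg
In Atp5k and Atp5g2 the match began at positions -50 and -42 from the start. The signals of these 4 genes are given with their complexes.

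Signals are MAS5 values on a linear scale, brought by the authors to a common trimmed mean on each array. Wherever 3 signals of a gene stand in a row, they are in the order Control, HF, HF + SFC. Each gene was read from its brightest probe set, a group of short probes against 1 transcript. Of the 32 members, 31 lay above the 97th percentile of mean signal over all genes, and only Atpif1 was dimmer, at percentile 83.3. All 5 skeletal muscle markers (Acta1, Ckm, Mb, Des and Ttn) lay above the 90th percentile. They were lower in HF than in Control by a median log2 ratio of -0.11, and higher in HF + SFC than in HF by 0.25, with summed signals of 211280, 190068 and 229316 in Control, HF and HF + SFC. Of 8 slow fibre markers, all were lower in HF (median -0.44) and all higher in HF + SFC than in HF (0.42), with sums of 91697, 67671 and 87636. The 9 fast fibre markers went the same way, with medians of -0.14 and 0.22. The 5 adipocyte markers measured were all higher in HF than in Control (2.12), and with iron 4 of them were below their HF signal (-0.61), with sums of 22938, 32800 and 29459. All 7 fibroblast markers and all 7 macrophage and leukocyte markers were higher in HF than in Control (medians 0.44 and 0.35), and 5 of each were lower with iron than in HF (-0.08 and -0.04). The 3' to 5' ratio of the beta-actin control probe sets, a measure of RNA integrity, was 1.09, 1.52 and 1.15, and that of the Gapdh probe sets 0.842, 0.832 and 0.820, so that HF stood apart by actin and not by Gapdh. The part of fibre types, of other cells and of RNA integrity in the differences below was not tested, and fewer fibres of a type cannot be told apart from less RNA per fibre.

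In HF muscle, 25 of the 32 genes had a lower signal than in Control and 7 a higher one. Lower signals were found for 49.3% of all genes and for 63.6% of the 546 genes above the 97th percentile of signal. The median HF/Control log2 ratio was -0.07 (0.954-fold), against 0.01 over all genes. Single members ranged from -0.24 for Atp5g2, which encodes subunit c of the rotor, to 0.26 for the ATP synthase inhibitor Atpif1. None reached 1.2-fold or 1.5-fold on its brightest probe set. By 1.5-fold or more, 17.0% of all genes were higher and 12.2% lower, but only 0.366% and 0.183% of those above the 97th percentile. Of the genes above the 97th percentile, 4.21% were higher and 2.75% lower by 1.2-fold or more. The split of 25 lower and 7 higher depended on the scaling of the arrays: it was 20 and 11, with 1 gene level, after quantile normalization, 29 and 3 with arrays centred on their medians, and 21 and 11 with arrays centred on genes above the 90th percentile. The median log2 ratio over all genes was -0.008, -0.075 and 0.038 in the same order. These splits therefore cannot be set against the shares above, which hold for the deposited scaling.

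Adding iron to the HF diet went with higher signals. In HF + SFC, 29 of the 32 genes had a higher signal than in HF and 3 a lower one, while 51.4% of all genes and 73.6% of those above the 97th percentile were higher. The median log2 ratio was 0.12 (1.08-fold), against 0.01 over all genes, with members from -0.14 for Atpif1 to 0.23 for Atp5g3. No member reached 1.2-fold, as 2.93% of genes above the 97th percentile did upwards and 1.83% downwards. The 1.5-fold threshold was reached by 13.7% and 13.5% of all genes, but by no gene above the 97th percentile. After quantile normalization, 24 were higher and 7 lower, and the median was 0.04, against 0.01 over all genes. The shares above hold for the deposited scaling and do not apply to that split. Both comparisons share the HF array and are not independent of each other.

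**Figure D1:**
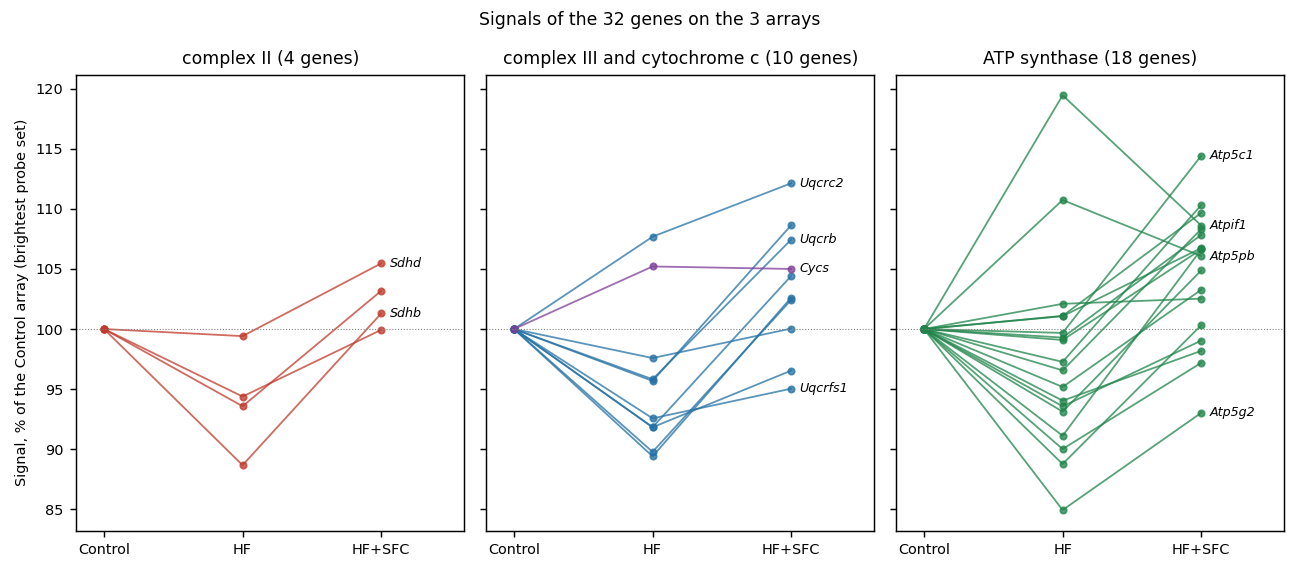
Signal of each of the 32 genes on the Control, HF and HF + SFC arrays (1 pooled sample each), as a percentage of its signal on the Control array, from the brightest probe set and with 1 line per gene. Values on HF run from 0.849-fold (Atp5g2) to 1.19-fold (Atpif1) of Control, and with arrays centred on their medians the lines of HF and HF + SFC would lie lower.

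Relative to Control, HF + SFC muscle had higher signals for 25 of the 32 genes and lower signals for 7. The median log2 ratio of 0.07 turned to -0.03 when arrays were centred on their medians. That centring lowered the median over all genes as well, from 0.02 to -0.08. Higher signals were found for 52.4% of all genes and for 68.7% of those above the 97th percentile. The highest ratio was that of Atp5c1, the gamma subunit of the central stalk, at 1.14-fold, and the lowest that of Atp5g2 at 0.930-fold. None reached 1.2-fold, against 3.11% higher and 2.01% lower among genes above the 97th percentile. By 1.5-fold or more, 16.5% of all genes were higher and 12.4% lower, but only 0.183% and 0.183% of those above the 97th percentile. The count of higher genes was 17 after quantile normalization and 9 with arrays centred on their medians. Under these scalings the median over all genes was 0.00 and -0.08, so the shares above do not apply to them.

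Outside the set, the median of these differences was largest in the brightest class of genes. For the members this did not hold in HF against Control. Among genes other than the members, the median HF + SFC/HF log2 ratio was 0.01 above the 50th percentile of signal, 0.03 above the 90th, 0.07 above the 97th and 0.12 above the 99th. The 24 members above the 99th percentile had a median of 0.12, and 22 of them (91.7%) were higher, against 134 of the 158 other genes (84.8%). In HF against Control, the same 24 members had a median of -0.06 and the 158 other genes -0.07, with lower signals for 18 of the 24 and 108 of the 158. The 7 members between the 97th and the 99th percentile were all lower in HF than in Control (median -0.10), as were 214 of 357 other genes (-0.03), and all had an HF + SFC/HF ratio above 1 (0.08 against 0.06), as had 239 of the 357. The signal classes above the 97th and 99th percentiles were chosen after the values were seen.

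**Figure D2:**
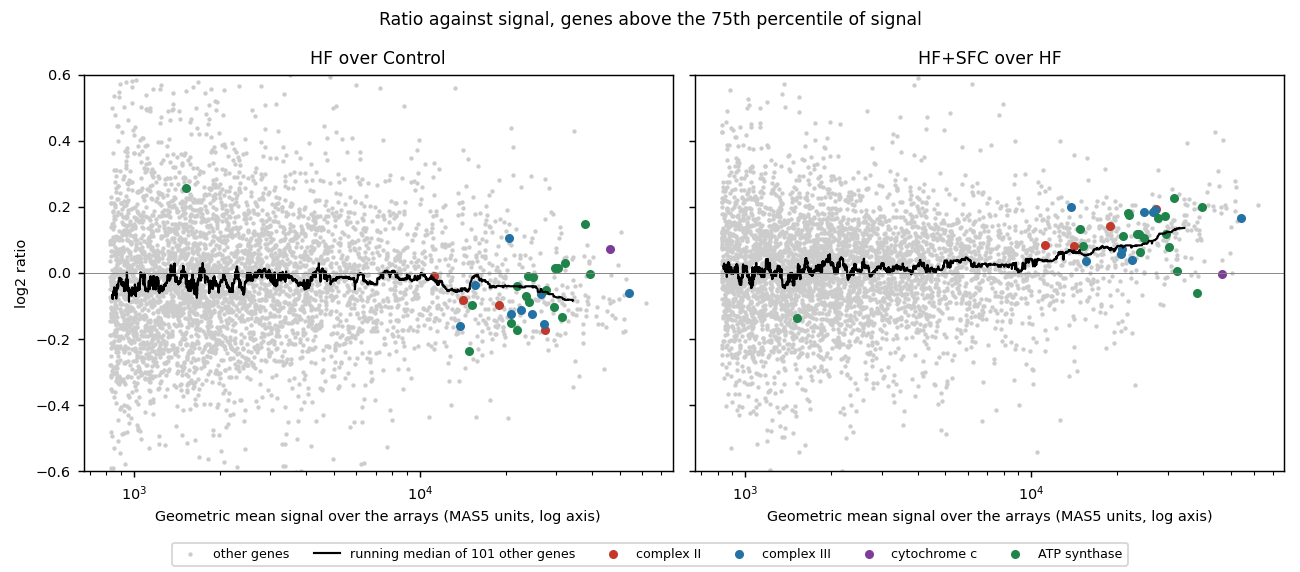
HF/Control (left) and HF + SFC/HF (right) log2 ratios against the geometric mean signal over the arrays (MAS5 units, log axis) for genes above the 75th percentile of signal. Grey points are other genes, coloured points the members and the line a running median of other genes, which at the bright end lies below 0 on the left and above 0 on the right, near most members. Points beyond 0.6 on either side are not drawn.

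Complex II had the same direction for its 4 genes, lower in HF than in Control and higher in HF + SFC than in HF. Sdha, the flavoprotein that oxidises succinate, had signals of 19096, 17869 and 19703. Sdhb, the Fe–S subunit, had 28328, 25118 and 28695 in the same order. Both were lowest in HF, and Sdhb had the lower HF/Control ratio of the pair (0.887-fold against 0.936-fold) and the higher HF + SFC/HF ratio (log2 0.19 against 0.14). With the other bright probe set of Sdha, at 0.820-fold and log2 0.29, this order was reversed. Sdhc, which anchors the enzyme in the membrane and binds heme together with Sdhd, had 14398, 13589 and 14388. Sdhd had 11003, 10938 and 11604, and was nearly level in Control and HF (0.994-fold). Over the 4 genes the median log2 ratio was -0.09 for HF over Control and 0.11 for HF + SFC over HF, and with all probe sets of a gene averaged it was -0.02 and 0.07. The direction of HF + SFC over HF was the same for all 4 under each of 5 other scalings, and that of HF over Control for all but Sdhd. Relative to Control the median of HF + SFC was 0.03. It turned negative after quantile normalization and under median centring, where the median over all genes was 0.00 and -0.08.

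The genes of complex III are taken by the position of their subunits. The core proteins, which lie on the matrix side and resemble a processing peptidase, went apart in HF. Uqcrc1 had 26216, 25083 and 28483, and was lowest in HF. Uqcrc2 had 19311, 20795 and 21654, lowest in Control and above it in HF (1.08-fold). On the deposited scaling, the complex III subunits that carry electrons were the least different of the complex between HF and HF + SFC. Cyc1, cytochrome c1 with its heme, had 15682, 15303 and 15688. Uqcrfs1, the Rieske Fe–S protein, had 23489, 21743 and 22323. The HF + SFC/HF ratio was 1.03-fold for each, and it was below 1 for both with arrays centred on genes above the 90th percentile and relative to other genes above the 97th. After quantile normalization the log2 ratio was -0.02 for Cyc1 and 0.00 for Uqcrfs1. Relative to other genes above the 97th percentile, Uqcrc2 (log2 -0.01) and Uqcrq (0.00) differed less than Cyc1 (-0.04) and Uqcrfs1 (-0.03).

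All 5 small subunits of complex III, which hold no iron, were lower in HF than in Control and higher in HF + SFC than in HF. Uqcrb, which takes part in ubiquinone binding, had 53517, 51280 and 57502. Uqcrh, the hinge protein between cytochrome c1 and cytochrome c, had 27847, 24999 and 28523. Uqcr10 had 14221, 12714 and 14593, and Uqcr11 had 25051, 23004 and 26159. These 4 genes had their lowest signal in HF and their highest in HF + SFC. Uqcrq had 21661, 19890 and 20912, and was the only small subunit that was lower in HF + SFC than in Control. For the 5 genes the median log2 ratio was -0.12 for HF over Control and 0.19 for HF + SFC over HF, and both directions held for each of the 5 genes under the 5 other scalings, with medians from 0.08 to 0.19 for HF + SFC over HF and from -0.08 to -0.21 for HF over Control. The narrowest was Uqcrq, whose HF + SFC/HF log2 ratio relative to other genes above the 97th percentile was 0.00. These scalings do not test the choice of probe set. The second bright probe set of Uqcrb went the other way, at 1.02-fold in HF over Control and 0.929-fold in HF + SFC over HF. Other bright probe sets of Uqcrh and Uqcr10 followed the brightest.

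Cytochrome c, the soluble heme protein that carries electrons from complex III to complex IV, did not follow the complexes. Cycs had 44907, 47245 and 47152, so that it was higher in HF than in Control (1.05-fold) and level between both high-fat groups (0.998-fold). With arrays centred on their medians its HF/Control log2 ratio was -0.01, and the HF + SFC/HF ratio was -0.02. That second ratio was -0.17 after quantile normalization and -0.07 relative to other genes above the 97th percentile, so that the level reading depended on the scaling, while it was below 0 under each of them.

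Subunits that hold iron were compared with the others in the electron transfer part of the chain. The 6 genes of Fe–S or heme proteins (Sdhb, Sdhc, Sdhd, Cyc1, Uqcrfs1 and Cycs) had a median HF + SFC/HF log2 ratio of 0.06, with a range from -0.00 to 0.19. The 8 genes without iron (Sdha, the core proteins and the small subunits) had a median of 0.17, with a range from 0.06 to 0.20. The ranges overlapped, and Sdhb was as high as the highest of the genes without iron to within 0.01. The iron group had the lower median under each of the 5 other scalings, at -0.01 to 0.06 against 0.07 to 0.17. Centring shifts the ratios of all genes by the same amount, so it cannot change the order of the groups. Adding a small offset hardly alters signals this bright. Only quantile normalization could change the order, and there the medians lay closer together, at 0.02 against 0.07. Both groups were read from the brightest probe sets, and other probe sets were not compared by group. Over all members, HF + SFC/HF log2 ratios of other bright probe sets differed from the brightest with an SD of 0.23 (0.14 without Sdhd). In HF against Control the medians of the groups with and without iron were -0.06 and -0.11. With so few genes, and with members that are not replicates, this is a description of 3 arrays.

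**Figure D3:**
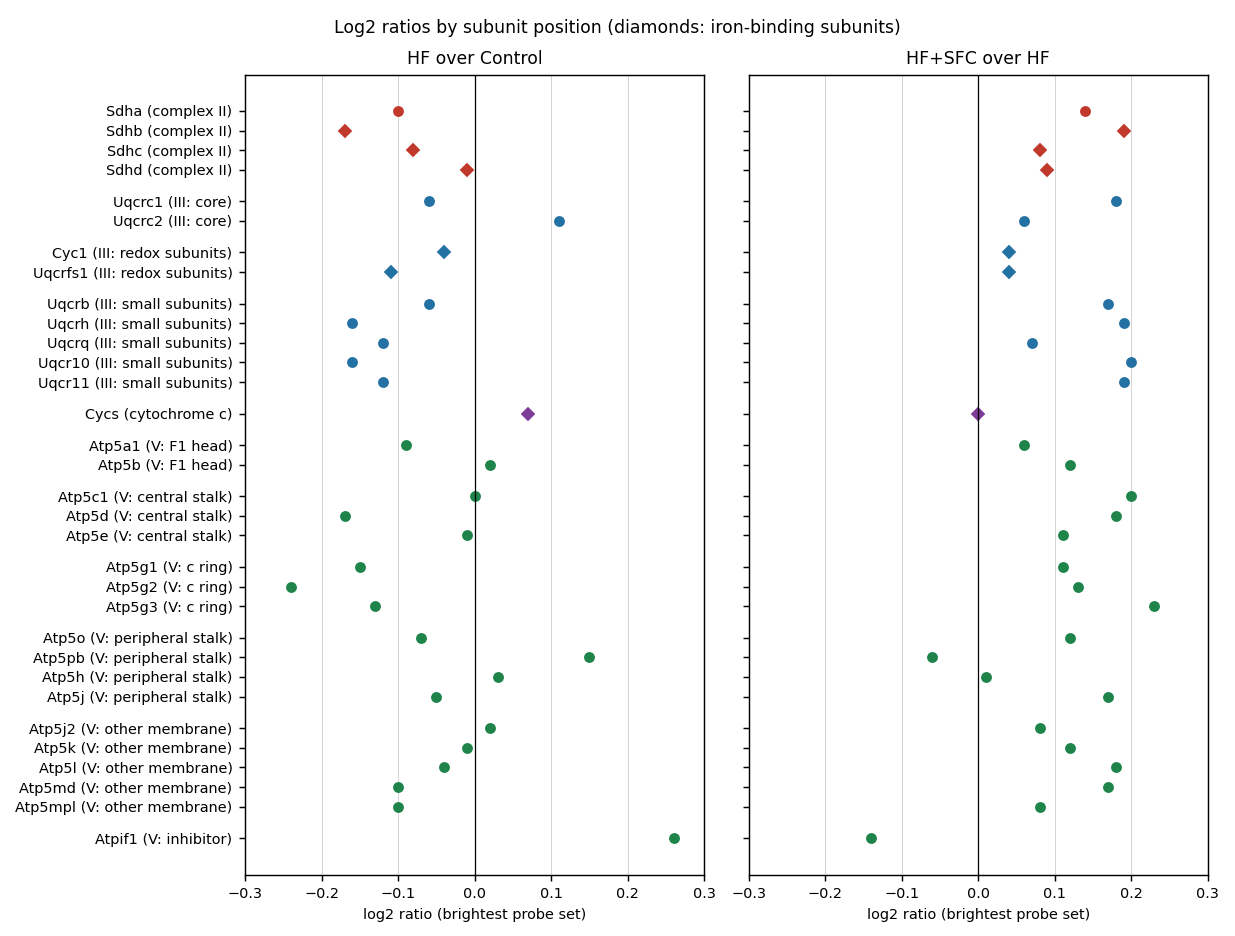
HF/Control (left) and HF + SFC/HF (right) log2 ratios for each of the 32 genes, grouped by the position of the subunit, from the brightest probe set and 1 pooled sample per array. Diamonds are iron-binding subunits; on the right Cyc1 and Uqcrfs1 at 0.04 and Cycs at -0.00 lie left of the small complex III subunits at 0.07 to 0.20, and with arrays centred on genes above the 90th percentile the points of those first 2 genes move to -0.01.

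In the F1 head of ATP synthase, where alpha and beta subunits alternate, the genes differed little. Atp5a1, the alpha subunit, had 24714, 23240 and 24265. Atp5b, the catalytic beta subunit, had 28666, 28980 and 31438. Control and HF were thus nearly level for Atp5b (1.01-fold), and HF + SFC was the highest array (1.08-fold of HF). For Atp5a1 the highest array was Control.

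The central stalk, which turns within the head, was higher in HF + SFC than in HF for each of its 3 genes. Atp5c1, the gamma subunit, had 37755, 37632 and 43200, with the last array at 1.15-fold of the second. Atp5d, the delta subunit, had 22767, 20209 and 22840, and was lowest in HF (0.888-fold of Control). Atp5e, the epsilon subunit, had 24353, 24130 and 25966. The median HF + SFC/HF log2 ratio was 0.18 for the stalk, and the direction held for all 3 genes under the 5 other scalings. In HF against Control only Atp5d stayed lower after quantile normalization, where the other 2 turned higher.

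The c ring is built from copies of 1 protein that Atp5g1, Atp5g2 and Atp5g3 all encode. Atp5g1 had 21804, 19626 and 21191. Atp5g2 had 16018, 13605 and 14901, and Atp5g3 had 31746, 28925 and 33849. Each gene was lowest in HF. The signal in HF was 0.900-fold, 0.849-fold and 0.911-fold of that in Control, and the direction held for all 3 genes under the 5 other scalings, as it did for HF + SFC over HF (log2 0.11, 0.13 and 0.23). HF + SFC was above Control for Atp5g3 only (1.07-fold), and under median centring for none of the 3. The median HF/Control log2 ratio was -0.15 for the ring, and -0.01 for the 5 genes of the head and central stalk, whose median turned positive after quantile normalization. The ranges overlapped, at -0.24 to -0.13 for the ring and -0.17 to 0.02 for those 5 genes.

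The peripheral stalk, which keeps the head from turning, had 2 genes higher and 2 lower in HF than in Control, with 1 higher when arrays were centred on their medians and 3 after quantile normalization. Atp5pb, subunit b, had 35865, 39716 and 38043, and was highest in HF (1.11-fold of Control). Atp5h, subunit d, had 31761, 32427 and 32564, a spread of 1.03-fold. Atp5o, the oligomycin sensitivity conferring protein at the top of the stalk, had 23646, 22506 and 24419, and Atp5j, coupling factor 6, had 27254, 26316 and 29521. On the brightest probe sets, Atp5o and Atp5j were lowest in HF and highest in HF + SFC, unlike Atp5pb. The second bright probe sets of Atp5o and Atp5pb gave the reverse. There Atp5o was highest in HF and lowest in HF + SFC, and Atp5pb lowest in HF and highest in HF + SFC. Over the stalk the median log2 ratio was -0.01 for HF over Control and 0.06 for HF + SFC over HF, and the latter turned to -0.04 after quantile normalization.

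The other membrane subunits are small proteins that help the enzyme to form dimers along the cristae. Atp5l, subunit g, had 21285, 20703 and 23481. Atp5k, subunit e, had 23283, 23117 and 25108. Atp5j2, subunit f, had 29552, 29868 and 31543. HF and Control lay within 1.03-fold of each other for these 3 genes, and HF + SFC was the highest array. The small membrane protein Atp5md had 29612, 27576 and 31057, and the proteolipid Atp5mpl had 15589, 14586 and 15439. Both were lowest in HF, at 0.931-fold and 0.936-fold of Control. All 5 had their HF + SFC signal above that in HF (median log2 ratio 0.12), and Atp5j2 turned lower after quantile normalization.

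Atpif1, the protein that blocks ATP hydrolysis by the enzyme, went against its complex. Its signal was 1393, 1664 and 1513, so that HF was the highest array, at 1.19-fold of Control, and HF + SFC lay at 0.909-fold of HF. It had the highest ratio of the 32 genes in HF against Control and the lowest in HF + SFC against HF, and the direction of both held under the 5 other scalings. It was also the dimmest member. Its other 2 probe sets, with signals of 25.8 to 103 over the arrays, were 0.548-fold and 1.42-fold in HF against Control and 1.55-fold and 2.81-fold in HF + SFC against HF.

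Other probe sets of the same genes gave a measure of how far the ratio of a single gene depends on its probes. The 32 members had 64 probe sets, and 20 members had more than 1. Above the 75th percentile of signal on each array there were 19 other probe sets, of 15 members. For HF + SFC over HF, 12 of the 19 went the same way as the brightest probe set of the gene, and the difference between the log2 ratios had an SD of 0.23. For HF over Control, 11 of 19 did, with an SD of 0.21. Without the probe set of Sdhd these SDs were 0.14 and 0.14. Over the 529 genes with a second probe set above the 90th percentile, the SDs were 0.18 and 0.20. The median log2 ratio of the 19 other probe sets themselves was 0.08 for HF + SFC over HF and -0.02 for HF over Control.

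The largest disagreement was in complex II. The other bright probe set of Sdhd had 2700, 4407 and 2620, highest in HF, at 1.63-fold of Control. That of Sdhc had 2378, 2997 and 2651, again highest in HF. Sdha went the other way, with 13290, 10898 and 13367 on its second probe set, or 1.23-fold in HF + SFC over HF. Those of Sdhd and Sdhc belong to a class, ending in _x_at or _s_at, that can bind several transcripts. So do the brightest probe sets of 10 of the 32 members, that of Sdha among them. In complex III, the second probe set of Uqcrb had 21246, 21605 and 20065, and was lowest in HF + SFC, while that of Uqcrh had 22829, 21886 and 23571 and followed the brightest.

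In ATP synthase, Atp5h had 25370, 23465 and 26757 on its second probe set, lowest in HF, where the brightest was level. Atp5pb had 25891, 25730 and 26548, with no high reading in HF. Atp5o had 17474, 18050 and 16500, the reverse of its brightest. The bright probe sets of Atp5d and Atp5k went the same way as the brightest in both comparisons. For Cycs, the second had 25951, 27782 and 27689, like the brightest, and the other bright one 24497, 24921 and 27116, with HF + SFC highest. The 13 dim probe sets had HF + SFC/HF ratios from 0.220 to 12.1, and 7 of the 13 were past 1.5-fold in either direction. Counting any probe set, 6 members were past 1.5-fold in HF + SFC over HF and 5 in HF over Control, namely Atp5g2, Atpif1, Cycs, Sdhd and Uqcrq. Under the same rule, 46.7% of all genes and 18.5% of those above the 97th percentile were past 1.5-fold in HF + SFC over HF, and 48.6% and 21.6% in HF over Control. In HF + SFC over Control the shares were 48.3% and 17.6%, and 6 members were past it.

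**Figure D4:**
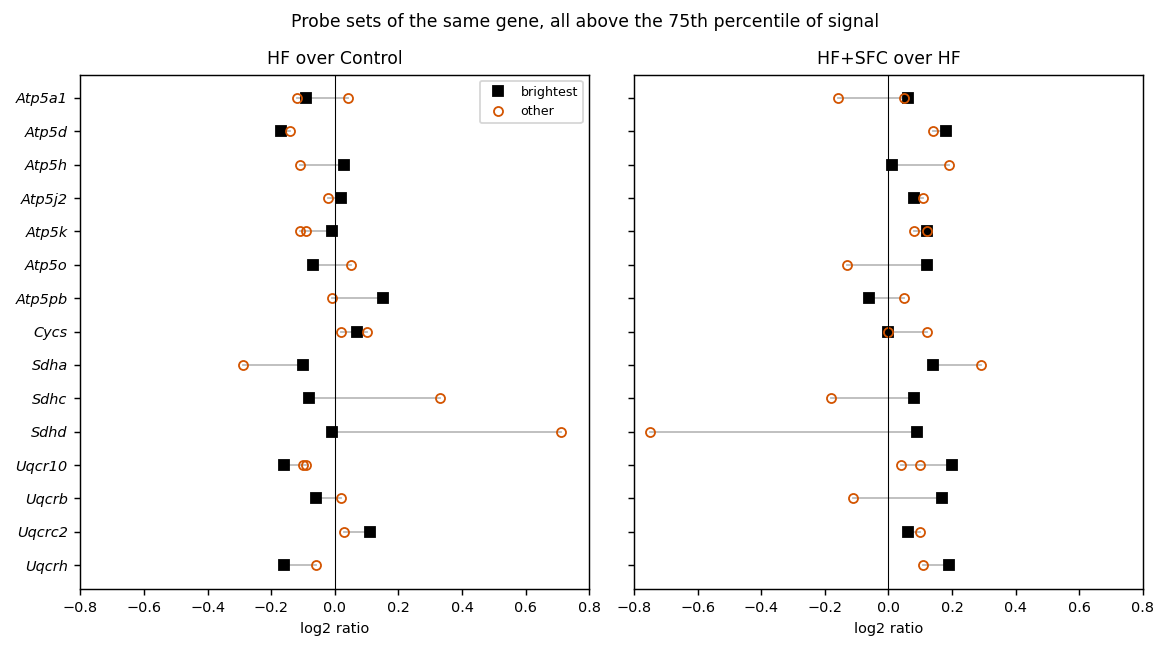
HF/Control (left) and HF + SFC/HF (right) log2 ratios for the 15 members with more than 1 probe set above the 75th percentile of signal, 1 pooled sample per array. Black squares are the brightest probe set and open circles the others; the second probe set of Sdhd lies at 0.71 on the left and -0.75 on the right, far from its brightest at -0.01 and 0.09.

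Assembly factors build these complexes without being part of them. Of 15 measured, 9 were lower in HF than in Control, where 49.3% of all genes were, and 9 had an HF + SFC/HF ratio above 1, as 51.4% of all genes did, with median log2 ratios of -0.05 and 0.08. Uqcc1, which is needed to make cytochrome b of complex III, had 1823, 1515 and 1901, and had the highest HF + SFC/HF ratio (1.25-fold). Fmc1, an ATP synthase assembly factor, had 6488, 5355 and 6040, the lowest HF/Control ratio (0.825-fold). Both were lowest in HF. Lyrm7, which helps to insert the Rieske protein, was the only factor past 1.5-fold, with 20.5, 68.7 and 28.1, at or below the array medians of 63.63, 67.39 and 68.03 in Control and HF + SFC. Dmac2l, a protein associated with ATP synthase, had 1125, 1150 and 1197.

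Coenzyme Q, the carrier between complexes II and III, is made by a further set of enzymes. Of 11 measured, 6 had an HF/Control ratio above 1 and 5 an HF + SFC/HF ratio above 1, against 50.7% and 51.4% of all genes, with median log2 ratios of 0.00 and -0.02. None was past 1.5-fold, which 17.0% of all genes were upwards and 12.2% downwards in HF over Control, and 13.7% and 13.5% in HF + SFC over HF. Pdss2, which helps to make the side chain, had 1315, 1100 and 1151, the lowest HF/Control ratio. Coq6, a hydroxylase, had 663, 777 and 738, the highest. Coq9, a lipid binding protein of the pathway, had 12886, 11156 and 12326, and Coq4 had 391, 403 and 303. These had the highest and the lowest HF + SFC/HF ratio, at 0.14 and -0.41 on the log2 scale.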

How the data were processed

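Gastrocnemius RNA of the Control, HF and HF + SFC groups was measured on Affymetrix GeneChip arrays of mouse genes, with 1 array of a pooled sample per group. The deposited values are linear MAS5 intensities (version not given in the sources used here; MAS5 is named in the submitters' processing notes), with a mean of 500.0 on each array once 2% was trimmed from both ends. The 45101 probe sets include 64 controls; of the others, 34945 carry a single gene symbol, 932 several and 9160 none. For 34741 probe sets the symbol was brought up to date through the gene ID in RefSeq (GRCm38.p6).

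Each gene was represented by the probe set with the highest mean log2 signal, and log2 ratios were taken with no offset. The members, gene lists, comparisons and alternatives were chosen with earlier results of these data known. All 32 members are named with their signals. Of assembly factors and coenzyme Q enzymes, the highest and lowest ratios and any gene beyond 1.5-fold are named. The 5 other scalings were quantile normalization, centring on array medians, centring on genes above the 90th percentile, an offset of 50, and centring on other genes above the 97th percentile, the last chosen after the data were seen. Also tried were averaging a gene's probe sets, keeping only genes above the median signal, leaving out probe sets ending in _x_at or _s_at, and thresholds of 1.2-fold and 2-fold. The calculations were checked on simulated signals with known changes. Python 3.11.15, numpy 2.4.6 and pandas 2.3.3 were used. The number of arrays limits the precision.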

Additional observations from a re-analysis of the deposited data

How the results depend on the processing

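The median of the members in HF + SFC over HF stayed above 0 under every alternative tried, with 24 to 29 of the members measured higher and medians of 0.04 to 0.12. Of the 29 higher members, 23 kept their direction under all 5 other scalings. The median log2 ratio was 0.036 after quantile normalization and 0.045 when the median of other genes above the 97th percentile of signal was subtracted, an alternative chosen after seeing the data. No alternative centred on genes above the 99th percentile, where 24 members lay. In that class the HF + SFC/HF median was 0.118 for the members and 0.120 for the 158 other genes. The sign relative to that class was not tested. For HF over Control, the number of higher members was 11 after quantile normalization and with arrays centred on genes above the 90th percentile, 13 relative to other genes above the 97th percentile, and 3 under median centring, where the median was -0.150. Over all genes the median under median centring was -0.075. For HF + SFC over Control, the median was 0.007 after quantile normalization and -0.029 under median centring, which left 9 higher. Over all genes the median was 0.000 and -0.078 in the same order. In that comparison complex II reversed to -0.010 after quantile normalization, -0.063 under median centring and -0.011 relative to genes above the 97th percentile. Complex III was at 0.000, -0.058 and -0.006 in the same order, and ATP synthase at -0.006 under median centring. Counting any probe set in place of the brightest, 5 members were past 1.5-fold in HF over Control and 6 in each of the other comparisons, against 0. By that rule 46.7% to 48.6% of all genes were past it, and 17.6% to 21.6% of those above the 97th percentile. A change of under 0.05 in a median was counted as the same. The cause was not tested.

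No paired analysis was possible because each group has 1 array. Leaving out a replicate does not apply. Without probe sets ending in _x_at or _s_at, 30 of the 32 members were left.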
